A study of Mus musculus with 12 samples.

Results

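The Sonic hedgehog pathway was described in mouse neural stem/progenitor cells (NSPCs) with and without Ythdf2, a cytoplasmic reader protein that binds N6-methyladenosine (m6A) in mRNA and promotes its decay. Its 9 core genes (Shh, Ptch1, Smo, Gli1, Gli2, Gli3, Sufu, Hhip and Gas1) were picked by name from the 24525 genes of the count tables, by a rule that uses no measured value. All 9 had a row. The libraries were 3 wild type and 3 Ythdf2-/- input samples, the part of the sheared mRNA that an m6A-seq experiment keeps back from immunoprecipitation, so the comparison asks whether steady-state mRNA of the pathway differs between the genotypes.

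Both genotypes were C57BL/6. NSPCs were taken from the forebrain of E14.5 embryos, grown as floating neurospheres with EGF and bFGF in N2 and B27 supplements without any further treatment, and collected at passage P1. The Ythdf2 allele was made with CRISPR-Cas9, with LoxP sites around the 5′ UTR and exon 1 that were recombined by a ubiquitous Cre, and Ythdf2-/- embryos came from crosses of heterozygotes. The germline deletion is therefore present in every cell of the embryo and not only in NSPCs. The study describes its samples as biological replicates, but the labels do not say how many embryos entered each culture, so the p-values measure the spread between these samples, which may in part be technical.

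Hedgehog ligands are secreted proteins that bind the receptor Patched (Ptch1). Unbound Ptch1 holds back the membrane protein Smoothened (Smo), and ligand binding lets Smo gather in the primary cilium and release the Gli transcription factors from their inhibitor Sufu. Gli1, Ptch1 and Hhip are themselves classic targets, which makes their mRNA a common readout of pathway activity, and in the forebrain the pathway is known for ventral patterning and for the upkeep of stem cells. Hhip, a membrane protein that sequesters ligand, and Ptch1 form negative feedback, while Gas1 is a surface co-receptor that helps ligand to bind Ptch1.

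In genome build GRCm38.p6 (mm10), Ptch1 lies on the minus strand at chr13:63508328-63573460 with 24 exons, and Smo on the plus strand at chr6:29735497-29761366 with 12. Shh (chr5:28456840-28467101, minus strand, 3 exons) shares 118 bp of exon with the opposite-strand gene 9530036O11Rik, and Gli1 (chr10:127329882-127341579, minus strand, 13 exons) shares 66 bp with Arhgap9, so part of their few reads cannot be assigned with certainty. Gli2 lies at chr1:118834061-119053619 (minus strand, 14 exons) and Gli3 at chr13:15463723-15730026 (plus strand, 15 exons). Sufu lies at chr19:46396896-46488804 (plus strand, 12 exons), Hhip at chr8:79965851-80058008 (minus strand, 13 exons) and Gas1, a gene of 1 exon, at chr13:60174405-60177535 (minus strand).

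The Gli proteins recognise a shared DNA word, GACCACCCA. It was searched on both strands in the 2000 bases before each RefSeq transcript start and was present before 470 of 28828 starts (1.63%), belonging to 429 of 23615 genes (1.82%). Among the 9 genes, the letters stood only before the 2 starts of Ptch1. They are shown here, with the word in capitals and 10 bases on each side, because no other member had a match and Ptch1 is itself a target of the pathway.
Ptch1, start at 63565735, chr13:63566425-63566453, plus strand: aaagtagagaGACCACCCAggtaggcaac
Ptch1, start at 63573460, chr13:63573455-63573483, minus strand: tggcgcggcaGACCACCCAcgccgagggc
The first word ended 700 bases before its start and the second 5 bases before its start, which is the outer end of the gene. A match of letters is a description and does not show binding, and its lack before the other 8 genes says only that these letters were not in those windows.

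The libraries held 11029827 to 13185778 counted reads and had TMM factors of 0.988 to 1.03. Ythdf2 stood at 71.9, 73.3 and 91.4 counts-per-million units (CPM) in wild type and at 11.7, 14.7 and 11.1 CPM in Ythdf2-/- replicates 1, 2 and 3, a log2 fold change of -2.66 (SE 0.183). Its edgeR adjusted p was 0.0547, and DESeq2 gave 1.65e-30. Neural progenitor markers were detected throughout (9 of 9 passed the expression filter, with summed levels of 3443 to 6515 CPM in wild type and 4856 to 6533 CPM in Ythdf2-/-), while markers of microglia, of endothelium and of mesenchyme were low (summed levels of at most 8.33, 3.59 and 41.6 CPM), with Ptprc and C1qa at 0 in all 6 libraries. Wild type replicate 3 stood apart from the rest. Its Gfap, an astroglial filament, was at 3046 CPM against 437 and 625 CPM in the other wild type libraries and 127, 87.7 and 5.55 CPM in Ythdf2-/-, Dcx, a marker of young neurons, at 315 against 8.36 to 13.1 CPM in the other 5, and the oligodendrocyte lineage list summed to 3598 against 1582 to 1905 CPM. For each gene named below whose fold change turned its sign without this library, both values are given.

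None of the 9 genes was called between the genotypes. Of the 7 that passed edgeR's expression filter, 4 were nominally higher and 3 lower in Ythdf2-/-. Their median log2 fold change was 0.02 against -0.01 over all 13112 genes tested, and the groups overlapped for each of the 7. The background of that test was also empty: at an adjusted p under 0.05, 0 of 13112 genes (0%) were called by edgeR's quasi-likelihood test, while DESeq2 called 31 and none of the 9. At an unadjusted p under 0.05, edgeR took 476 genes (3.63%) and 0 of the 7, and groups did not overlap for 1332 genes (10.2%) and 0 of the 7. The smallest p that exact permutation of these 6 libraries can give for a single gene is 0.1.

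On the RPKM scale, which divides the CPM by the length of the exons in kilobases, the levels spanned from the receptor complex down to the ligand and Gli1. Smo was highest, at a mean of 37.2 RPKM over the 6 libraries (rank 2031 of 23615 genes), followed by Ptch1 at 26.9 RPKM (rank 2831), Gas1 at 23.6 RPKM (rank 3234) and Sufu at 11.6 RPKM (rank 5830). Gli2 stood at 2.50 RPKM, Gli3 at 1.70 RPKM, Hhip at 0.595 RPKM, Shh at 0.219 RPKM and Gli1 at 0.0920 RPKM (rank 14786). Not all neighbours in this order were separate. Smo exceeded Ptch1 in 5 of 6 libraries, Ptch1 exceeded Gas1 in 3, Gas1 exceeded Sufu in 5, Gli2 exceeded Gli3 in 5 and Shh exceeded Gli1 in 5, whereas Sufu was above Gli2, Gli3 above Hhip and Hhip above Shh in all 6.

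**Figure D1:**
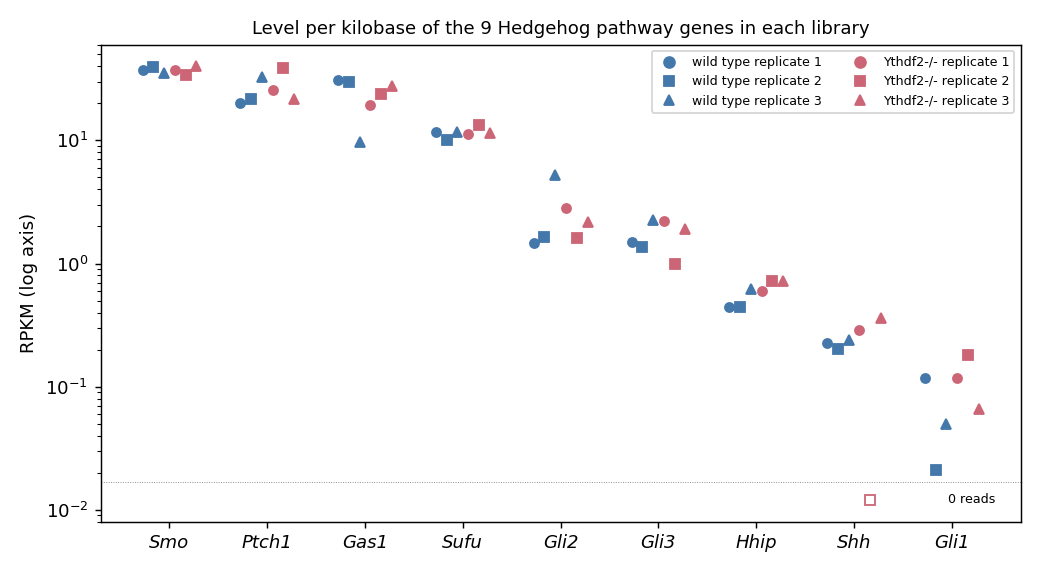
Level of each pathway gene in each library, in RPKM on a log axis, with blue points for wild type, red points for Ythdf2-/- and 1 symbol for each replicate number; the open symbol marks Shh, which had 0 reads in Ythdf2-/- replicate 2. The genes run from Smo, at 33.9 to 40.0 RPKM, down to Gli1, at 0.0208 to 0.182 RPKM, and blue and red points overlap for every gene.

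Shh, the ligand, was at the limit of detection in both genotypes. It had 7 reads in each wild type library and 9, 0 and 12 reads in Ythdf2-/- replicates 1, 2 and 3, which gave 0.591 ± 0.0536 CPM and 0.578 ± 0.510 CPM (SD, n = 3, exact permutation test, two-sided p = 1). The wild type libraries were equal in reads and the Ythdf2-/- libraries lay on both sides of them. The 0 reads of Ythdf2-/- replicate 2 allow a level of up to 0.222 CPM, that of 3 counts, and this limit covers counting error only. Both genotypes held 21 Shh reads in all, out of 35923370 reads in wild type and 37498303 in Ythdf2-/-.

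Ptch1, the ligand's receptor, was the member with the most reads. It was at 155, 167 and 253 CPM in wild type and at 199, 299 and 167 CPM in Ythdf2-/-. The highest value was that of Ythdf2-/- replicate 2 and the next that of wild type replicate 3, while Ythdf2-/- replicate 3 was level with wild type replicate 2. The means of 192 ± 53.4 and 222 ± 69.0 CPM (SD, n = 3) gave a log2 fold change of 0.21 (SE 0.290, 95% interval -0.49 to 0.91, edgeR adjusted p 0.999). The sign rested on 1 library: without Ythdf2-/- replicate 2 the log2 fold change was -0.05, and without wild type replicate 3 it was 0.46.

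Gas1, the co-receptor, varied mainly within wild type. It was at 97.0, 92.6 and 30.3 CPM in wild type and at 60.7, 74.8 and 87.2 CPM in Ythdf2-/-. Wild type replicate 3 was the lowest of the 6 libraries and the other wild type libraries were the highest. The means were 73.3 ± 37.3 and 74.2 ± 13.3 CPM (SD, n = 3), with a log2 fold change of 0.02 (SE 0.432, 95% interval -1.03 to 1.06, edgeR adjusted p 0.999). Without wild type replicate 3 the log2 fold change was -0.35 (SE 0.158), with an edgeR adjusted p of 0.326. The sign also turned without Ythdf2-/- replicate 3, to -0.11 (SE 0.524). Per length, Gas1 stood at 1.53, 1.36 and 0.294 times Ptch1 in wild type and at 0.749, 0.613 and 1.28 times in Ythdf2-/-, a ratio whose groups overlapped (exact permutation test, two-sided p = 0.8).

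Smo, the signal transducer that Ptch1 restrains, was the steadiest member. It was at 148, 156 and 142 CPM in wild type and at 148, 135 and 159 CPM in Ythdf2-/-. The groups covered nearly the same range, with a coefficient of variation over the 6 libraries of 6.07% against a median of 21.1% over all genes tested. The means of 149 ± 7.13 and 147 ± 12.2 CPM (SD, n = 3) gave a log2 fold change of -0.01 (SE 0.121), and the 95% interval of -0.31 to 0.28 was the narrowest of the 7. The ratio of Ptch1 to Smo per length was 0.542, 0.556 and 0.925 in wild type and 0.697, 1.15 and 0.544 in Ythdf2-/- (exact permutation test, two-sided p = 0.6).

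Sufu, which holds Gli proteins in the cytoplasm, was likewise steady. It was at 52.6, 45.6 and 52.7 CPM in wild type and at 51.3, 60.8 and 52.1 CPM in Ythdf2-/-. Ythdf2-/- replicate 2 was the highest and wild type replicate 2 the lowest, and the other 4 libraries lay within 51.3 to 52.7 CPM. The log2 fold change was 0.12 (SE 0.135, 95% interval -0.20 to 0.45, edgeR adjusted p 0.999).

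The plot of CPM by library shows both kinds of member side by side, those that were level across the libraries and those set by 1 of them.

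**Figure D2:**
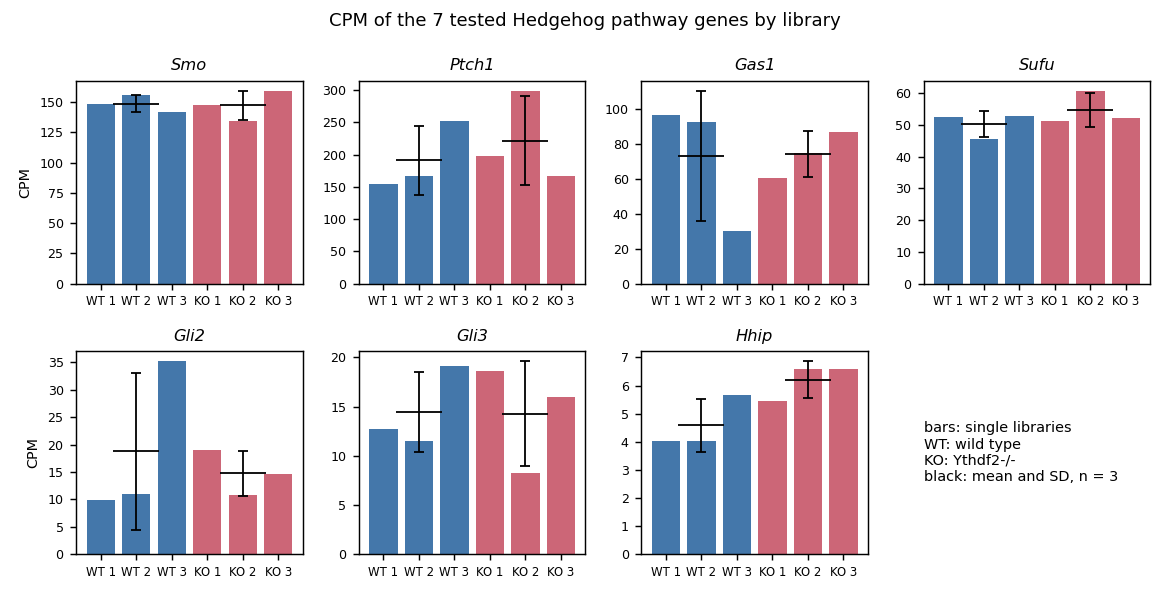
CPM of the 7 pathway genes that passed the expression filter, with 1 bar for each library (blue, wild type; red, Ythdf2-/-; numbers are replicates) and the mean with its SD (n = 3) in black; each panel has its own axis from 0. Smo and Sufu are nearly level, Gli2 peaks at 35.2 CPM and Gas1 drops to 30.3 CPM in wild type replicate 3, and Ptch1 peaks at 299 CPM in Ythdf2-/- replicate 2.

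Of the Gli factors, Gli1, an activator and itself a target of the pathway, was barely detected. It had 5, 1 and 2 reads in wild type and 5, 9 and 3 reads in Ythdf2-/-. The groups overlapped, with means of 0.229 ± 0.180 and 0.445 ± 0.213 CPM (SD, n = 3, exact permutation test, two-sided p = 0.3), where 3 counts are worth 0.222 to 0.275 CPM. Without the expression filter, edgeR gave Gli1 a log2 fold change of 0.96 (SE 0.763, unadjusted p 0.245). With 8 reads in all wild type libraries and 17 in all Ythdf2-/- libraries, the size of a difference between the genotypes stays uncertain.

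Gli2, the main activator of the primary response, varied the most among the tested members, with a coefficient of variation of 57.7%. It was at 9.93, 11.1 and 35.2 CPM in wild type and at 18.9, 10.7 and 14.6 CPM in Ythdf2-/-. Wild type replicate 3 was 3.55 times the lowest library, and the other 5 libraries ran from 9.93 to 18.9 CPM. The log2 fold change was -0.35 (SE 0.539, 95% interval -1.65 to 0.96, edgeR adjusted p 0.999), and without wild type replicate 3 it turned to 0.49 (SE 0.262, edgeR adjusted p 0.394).

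Gli3, which in the absence of ligand is cut to a repressor, was at 12.7, 11.5 and 19.1 CPM in wild type and at 18.6, 8.29 and 15.9 CPM in Ythdf2-/-. The highest library was wild type and the lowest Ythdf2-/-, and the groups overlapped over most of their range. The means of 14.4 ± 4.10 and 14.3 ± 5.35 CPM (SD, n = 3) gave a log2 fold change of -0.02 (SE 0.361, 95% interval -0.89 to 0.86). Without wild type replicate 3 the log2 fold change of Gli3 was 0.24, and without Ythdf2-/- replicate 2 it was 0.27.

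As a share of summed Gli reads per kilobase, which does not depend on the scaling between libraries, Gli2 made up 47.7%, 54.3% and 69.4% in wild type and 54.9%, 57.9% and 52.6% in Ythdf2-/-. Gli3 made up 48.5%, 45.0% and 30.0% in wild type and 42.9%, 35.6% and 45.8% in Ythdf2-/-. Gli1 made up 3.77%, 0.686% and 0.660% in wild type and 2.26%, 6.58% and 1.60% in Ythdf2-/-, each from at most 9 reads. Gli mRNA was therefore almost wholly Gli2 and Gli3 in both genotypes, and the groups overlapped for each share (exact permutation tests, two-sided, p = 0.5 for Gli1, 0.9 for Gli2 and 1 for Gli3).

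**Figure D3:**
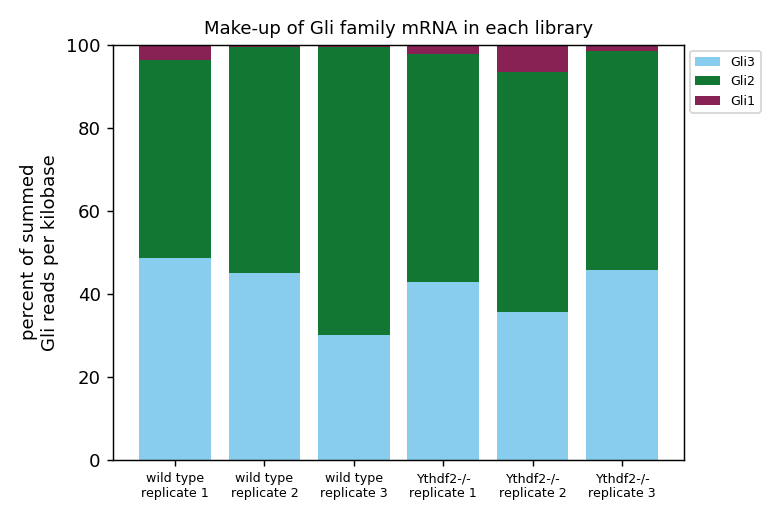
Percent of the summed reads per kilobase of Gli1, Gli2 and Gli3 that each gene took, with 1 stacked bar for each library. Gli2 takes the largest share, 69.4%, in wild type replicate 3, and Gli1 stays at or below 6.58% in every library.

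Hhip, the ligand-binding antagonist and a target of the pathway, showed the largest relative difference among the tested members. It was at 4.02, 4.04 and 5.67 CPM in wild type (47, 53 and 62 reads) and at 5.46, 6.59 and 6.60 CPM in Ythdf2-/- (64, 89 and 82 reads). The groups overlapped through a single pair of libraries, wild type replicate 3 and Ythdf2-/- replicate 1. The means of 4.58 ± 0.947 and 6.22 ± 0.656 CPM (SD, n = 3) gave a log2 fold change of 0.44 (SE 0.256, 95% interval -0.18 to 1.06), with an unadjusted edgeR p of 0.133 and an exact permutation p of 0.2 (two-sided). The direction was kept without any 1 library, at 0.36 to 0.62.

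Without wild type replicate 3, 1 of the 7 genes, Hhip (log2 fold change 0.62, SE 0.224), reached an unadjusted edgeR p of 0.0308 (adjusted p 0.258), in a fit where 16.6% of all genes did so. Wild type was then replicates 1 and 2 only, whose counts differed by a chi-square per degree of freedom of 4.57. Other pairs within a genotype had 22.5 to 140, so the SE may understate wild type spread. Both wild type libraries held reads on Y-linked genes (1111 and 1638), against 0, 1 and 2147 in Ythdf2-/- replicates 1, 2 and 3. That split partly coincided with genotype and was not a term of the fit. Both limits apply to every value without wild type replicate 3. Limma-voom sample quality weights were 2.72, 3.74 and 0.0901 for wild type replicates 1, 2 and 3 and 2.86, 0.451 and 0.846 for Ythdf2-/- replicates 1, 2 and 3. With these weights, 3 of the 7 had an unadjusted p under 0.05, against 29.9% of all genes: Hhip at a log2 fold change of 0.51 (SE 0.164), Gli2 at 0.64 (SE 0.203) and Gas1 at -0.47 (SE 0.163). Their limma adjusted p were 0.0928, 0.0920 and 0.107, so none was called. Gli2 and Gas1 thus changed the sign of their difference when wild type replicate 3 was left out or given this low weight. Gas1 also did so without Ythdf2-/- replicate 3 (-0.11). In wild type replicate 3 the summed levels of the astroglial, neuronal and oligodendrocyte lineage lists were also highest, although single genes of these lists, such as Olig2, were not. The part of those markers in the Hedgehog values was not tested, and in bulk RNA fewer cells of a type cannot be told apart from less RNA per cell.

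**Figure D4:**
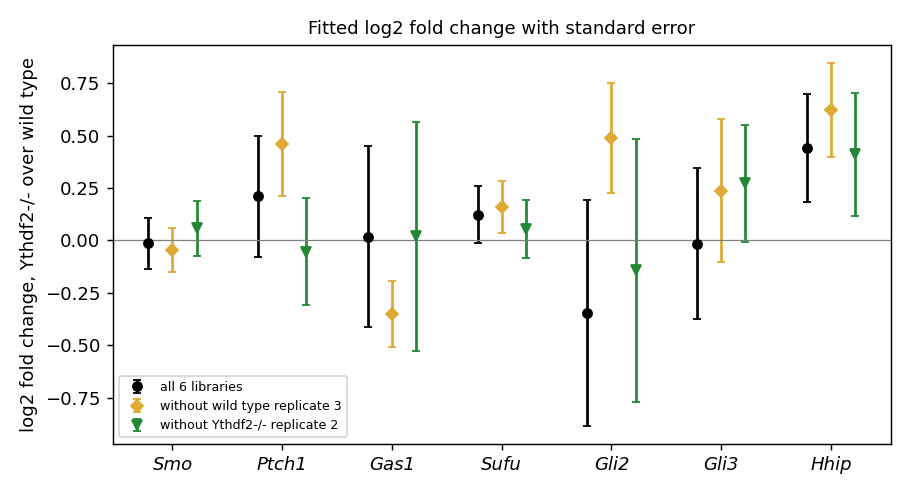
Log2 fold change of Ythdf2-/- over wild type with its standard error for the 7 tested genes, with all 6 libraries (black), without wild type replicate 3 (yellow) and without Ythdf2-/- replicate 2 (green). Gli2 moves from -0.35 to 0.49 and Gas1 from 0.02 to -0.35 without wild type replicate 3, and Ptch1 moves from 0.21 to -0.05 without Ythdf2-/- replicate 2.

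By the root mean square difference of centred log2 CPM over the 6 libraries, the tested genes most like Ptch1 in their pattern were Pid1 (0.0532), Jarid2 (0.0559) and Bcorl1 (0.0589), against a spread of Ptch1 about its own mean of 0.347. Such likeness was chosen out of 13112 genes and over 6 libraries only, and the libraries differed in ways other than genotype. For Gli1 no such genes are given, since it did not pass the filter.

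Around the core, 41 other Hedgehog genes had a row, and 30 passed the filter. Of these, 15 were nominally higher and 15 lower in Ythdf2-/- (median log2 fold change 0.01), 0 were called by edgeR, 1 had an unadjusted p under 0.05 and groups did not overlap for 4. Over all genes, the corresponding edgeR shares were 3.63% for an unadjusted p under 0.05 and 10.2% for groups without overlap. DESeq2 called 0 of the 30 and had 1 at an unadjusted p under 0.05, against 4.29% of all genes. The count at an unadjusted p under 0.05 moved with single libraries: it was 4 of 30 without wild type replicate 3 (Dhh, Ccnd1, Kif7 and Disp1, against 16.6% of all genes) and 0 without each Ythdf2-/- library in turn, and it was 5 of 30 with quality weights (against 29.9%). With a term for reads on 4 Y-linked genes the count was 3 of 30 (Evc, Ccnd2 and Nkx2-2, against 10.95% of all genes).

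Among the 8 genes for ligands and their release, 4 were tested and none of these had an unadjusted p under 0.05. Ihh, the Indian hedgehog ligand, had 0 to 4 reads in a library. Dispatched proteins release lipid-modified ligand from the producing cell, and Disp1 was at 13.9, 14.0 and 13.9 CPM in wild type and at 17.1, 17.3 and 18.8 CPM in Ythdf2-/-, without overlap (log2 fold change 0.35, SE 0.152, unadjusted edgeR p 0.0596). Disp2 had a log2 fold change of 0.32 (SE 0.343). Scube2, a secreted helper of ligand release that did not pass the filter, had 5, 7 and 25 reads in wild type and 9, 64 and 2 reads in Ythdf2-/-. Dhh, the Desert hedgehog ligand, is added here after its values were seen: it had 36, 45 and 2 reads in wild type and 7, 3 and 13 reads in Ythdf2-/-, so that wild type replicate 3 was again the exception (log2 fold change -1.85, SE 0.993, and -2.39, SE 0.537, without that library, edgeR adjusted p 0.174).

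Among 6 co-receptors and surface regulators, 5 were tested and none had an unadjusted p under 0.05. The co-receptor Cdon was at 59.4, 58.5 and 51.1 CPM in wild type and at 62.2, 59.8 and 67.7 CPM in Ythdf2-/-, separate by a narrow margin (log2 fold change 0.17, SE 0.125). Its relative Boc had a log2 fold change of 0.08 (SE 0.241) and the ciliary receptor Gpr161, which restrains the pathway, one of -0.22 (SE 0.346). The sign of Gpr161 rested on wild type replicate 3, at 92.5 CPM against 41.3 to 57.8 CPM elsewhere, and leaving that library out gave 0.26 (SE 0.149).

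In the ciliary relay, where 9 genes had a row and were tested, 4 were nominally higher and 5 lower. The kinase Adrbk1 (now named Grk2) had a log2 fold change of -0.09 (SE 0.123), the ciliary trafficking factor Tulp3 one of -0.15 (SE 0.184), and the ciliary protein Evc one of 0.35 (SE 0.242). Of 8 genes for Gli processing and turnover, 4 were nominally higher and 4 lower. The kinases Gsk3b and Csnk1a1, which phosphorylate Gli proteins before cleavage, had log2 fold changes of 0.05 (SE 0.238) and -0.02 (SE 0.122), and the ubiquitin ligase scaffold Cul3 one of 0.04 (SE 0.125). Cul1, named after its values were seen, was the only gene of that list whose groups did not overlap, at 154 to 162 CPM in wild type and 132 to 146 CPM in Ythdf2-/- (log2 fold change -0.17, SE 0.111). The small differences of Boc, Tulp3, Gsk3b, Csnk1a1 and Cul3 each changed sign when some other single library was left out.

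Of 10 targets known from neural tissue, 4 passed the filter. Nkx2-2, a ventral patterning factor that is also used by oligodendrocyte precursors, was the 1 other Hedgehog gene with an unadjusted p under 0.05. It had 100, 106 and 189 reads (8.56, 8.09 and 17.3 CPM) in wild type and 38, 87 and 76 reads (3.24, 6.44 and 6.11 CPM) in Ythdf2-/-. All Ythdf2-/- libraries lay below all wild type libraries, and wild type replicate 3 was the highest (log2 fold change -1.10, SE 0.423, unadjusted edgeR p 0.0391, adjusted p 0.999). Without that library, the log2 fold change of Nkx2-2 was -0.66 (SE 0.322, unadjusted edgeR p 0.0866), and its unadjusted p was also above 0.05 without each Ythdf2-/- library in turn. Olig2, a factor of ventral progenitors and the oligodendrocyte lineage, was at 490, 474 and 324 CPM in wild type and at 471, 417 and 514 CPM in Ythdf2-/- (log2 fold change 0.12, SE 0.206, and -0.045, SE 0.131, without wild type replicate 3).

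The D-type cyclins, cell cycle genes that many other signals also drive, were lowest in wild type replicate 3. Ccnd1 was at 1986, 1685 and 27.9 CPM in wild type and at 1008, 679 and 1113 CPM in Ythdf2-/-, with a log2 fold change of -0.40 (SE 1.17) over all libraries and of -0.98 (SE 0.234, edgeR adjusted p 0.182) without that library, and it was 0.12 (SE 1.35) without wild type replicate 1. Ccnd2 was at 728, 689 and 55.3 CPM in wild type and at 533, 339 and 1072 CPM in Ythdf2-/- (log2 fold change 0.40, SE 0.897). The sign of Ccnd2 turned to -0.13 (SE 0.455) without wild type replicate 3 and to -0.17 (SE 1.02) without Ythdf2-/- replicate 3. The other 6 targets did not pass the filter. Nkx6-2, a ventral patterning factor, had 15, 2 and 37 reads in wild type and 7, 3 and 1 reads in Ythdf2-/-, with overlap, and the other 5 (Nkx2-1, Nkx6-1, Foxa2, Foxf1 and Mycn) had 0 to 12 reads in a library.

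**Figure D5:**
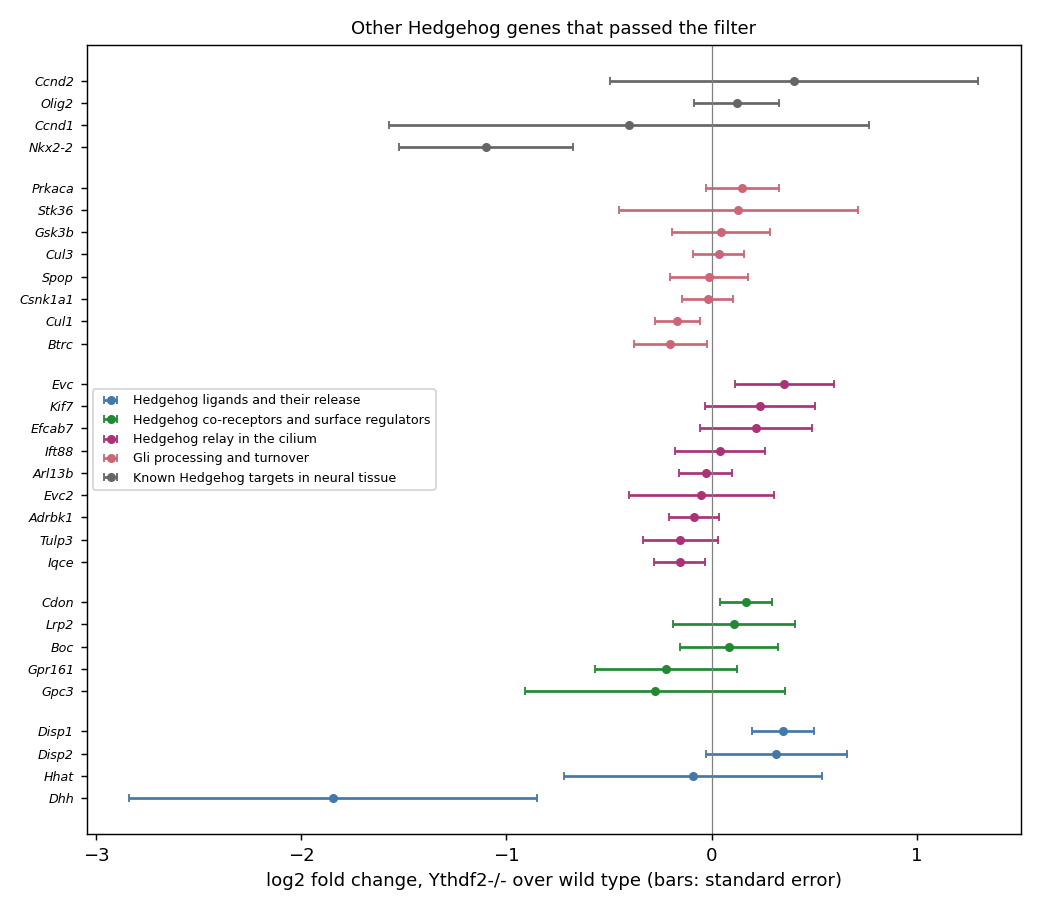
Log2 fold change of Ythdf2-/- over wild type with its standard error for the 30 other Hedgehog genes that passed the filter, coloured by list and sorted within it. Most lie within 0.4 of 0, while Dhh at -1.85 and Nkx2-2 at -1.10 lie lowest and Ccnd2 at 0.40 lies highest.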

How the data were processed

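The data were 6 input libraries of neurospheres (3 wild type, 3 Ythdf2-/-), grouped by their labels. The 6 m6A-IP libraries were not analysed here. The authors purified and sonicated mRNA, prepared stranded libraries and, per their methods, aligned reads to mm10 with TopHat. The submitters' processing notes also name Bowtie2 2.2.9, RSEM 1.2.15 and featureCounts, with no roles. The deposited raw counts are whole reads per gene, not normalized, and the strand setting is not given in the sources used here. The authors also deposited expected counts, TPM and FPKM per gene; the expected counts amounted to a median of 2.07% of the raw counts, with at most 5.41 for any of the 9 genes in a library, so these values served only as an alternative (limma on log2(FPKM + 1), which understates changes of low genes), and the TPM were not used.

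Raw counts of the 13112 genes that passed filterByExpr were tested with edgeR 4.0.16 (TMM, robust quasi-likelihood fit, genotype as the only term, Benjamini-Hochberg over all genes tested) in R 4.3.3, and log2 CPM used a prior count of 2. The biological coefficient of variation was 0.332. RPKM are CPM over the exon union of RefSeq GRCm38.p6. The count tables held 11029827 to 13185778 reads a library. Genes below the filter were tested by exact permutation, two-sided. Alternatives, 14 in kind with 0 added later, cover scaling, filter, tool (DESeq2 1.42.0, limma 3.58.1), quality weights, replicate block, a term for reads on 4 Y-linked genes, FPKM, gene length and left-out libraries. The pathway genes, gene lists and tests were chosen with earlier results of these data known. Named are the 9 genes, Ythdf2, the 3 genes with the most reads in each other list, any of these at an unadjusted p under 0.05, and the 3 genes nearest to Ptch1. Dhh, Kif7, Cul1 and the genes of few reads were named after their values were seen, and proteins are not shown.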

Additional observations from a re-analysis of the deposited data

How the results depend on the processing

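None of the 9 genes was called under an alternative that tested it (7 were tested in most, 9 without a filter, and 3 or 8 on FPKM), and their lowest adjusted p was 0.0920 (Gli2, quality weights). Quality weights took 3 of the 9 below an unadjusted p of 0.05, and without each library in turn the number was 0 to 1 (1 without wild type replicate 3). Of all genes, 1 was called with RLE size factors, 1 without a filter, 1 with at least 10 counts in every library, 31 by DESeq2, 632 with quality weights, 13 with the term for Y-linked reads, 2, 1 and 2 by limma on FPKM (pseudocount 1, pseudocount 0.1, no filter), and 0 to 2 without each library in turn. Of the other Hedgehog genes, quality weights called 1, Dhh (log2 fold change -2.32, limma adjusted p 0.0490).

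Signs turned as follows, none with a call. Smo went to 0.031 with the Y-linked term and to 0.65, 0.88 and 0.65 on FPKM (in the order above), and without each library it ran from -0.073 to 0.057. Gas1 went to -0.47 with quality weights and to -0.89, -1.92 and -0.89 on FPKM, and ran from -0.35 to 0.27. Gli2 went to 0.64 with quality weights and ran from -0.65 to 0.49. Gli3 went to 0.00409 without a filter and 0.44 with quality weights, and ran from -0.24 to 0.27. Ptch1 ran from -0.054 to 0.46. Ythdf2 was at 0.32 on unfiltered FPKM. The cause of these changes was not tested. Hhip and Sufu kept their sign in every alternative that gave a value.

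The main fit did not pair the samples by replicate number. Same-numbered deviations from the genotype means correlated at -0.248, -0.244 and -0.394. Deviations from means of 3 libraries depend on each other, and wild type replicate 3 stood apart, so these values cannot decide whether samples were paired. With the replicate block, 0 of the 9 genes and 0 of all genes were called, and Ptch1 stood at 0.20. Depth limits Shh and Gli1, at no more than 12 reads in a library.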

Other observations

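Reads on 4 Y-linked genes were present in wild type replicates 1 and 2 and Ythdf2-/- replicate 3 (1111, 1638 and 2147 reads) and nearly absent from the other 3 libraries (0 to 1 reads). Ptch1 stood at 155, 167 and 167 CPM in the former samples and at 253, 199 and 299 CPM in wild type replicate 3 and Ythdf2-/- replicates 1 and 2. Gas1 went the other way, at 97.0, 92.6 and 87.2 CPM against 30.3, 60.7 and 74.8 CPM. With a term for the presence of these reads, the genotype difference of Ptch1 on the log2 scale was 0.01 (SE 0.187) and that of Gas1 0.51 (SE 0.316), neither called by edgeR (adjusted p 0.981 and 0.589). These samples were set apart after the data were seen and are not groups of the study, and the part of the Y-linked split in the Ptch1 and Gas1 values was not tested beyond that fit.

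The ventral forebrain list (9 genes, 5 of them tested) summed to 39.4 to 76.9 CPM in wild type and 59.1 to 89.3 CPM in Ythdf2-/-, with Dlx5 and Lhx8 at 0 in all libraries, and the dorsal list to 94.1 to 150 CPM and 93.2 to 142 CPM, with Neurog1 at 0. The groups overlapped for both sums.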
